A study of Mus musculus with 12 samples.

Results

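Hearts of mice infused with angiotensin II (Ang II) and given EHP-101 were compared with hearts of mice infused with Ang II and given vehicle, by RNA sequencing of 3 libraries against 3, out of 12 libraries in 4 groups. The 6 libraries were taken by their titles, and every one of the 15336 genes with enough reads was tested. All animals were male C57BL/6 mice of 8 weeks with a subcutaneous pump for 28 days, which delivered Ang II to 3 groups and saline to the control group. The titles of the 3 control libraries add "Ang II control" in brackets, and they were taken here as the saline group, which their own labels do not name. In the last 2 weeks the Ang II animals received vehicle, oral EHP-101 at 20 mg/kg, or losartan at 0.6 g/L in the drinking water. The EHP-101 group therefore carried the full Ang II infusion, and treatment began after infusion had already run. Total counts were 23585132 to 24040516 per library with Ang II alone and 22745721 to 23521895 with EHP-101. The labels do not say whether the libraries of a group came from separate animals, so the p-values measure only the spread between these libraries, which may be technical.

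Ang II acts on AT1 receptors of vessels and heart, raises blood pressure and drives hypertrophy, entry of monocytes and lymphocytes, and deposition of collagen between the muscle cells. EHP-101 is an oral preparation whose active compound acts on PPARγ, a nuclear receptor that governs lipid storage genes and restrains inflammatory genes in macrophages, and on CB2, a cannabinoid receptor found mainly on leukocytes. It is also known to activate the hypoxia-inducible factor (HIF) pathway. Losartan blocks the AT1 receptor itself. In the heart, leukocytes are a minority beside muscle cells, endothelium and fibroblasts, so in bulk RNA fewer cells of a type and less RNA per cell cannot be told apart.

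The defining heart muscle genes were abundant in all 6 libraries. As CPM, counts divided by the TMM-scaled library size, Myh6 ranged from 16752 to 22728, Tnnt2 from 5729 to 9111, Tnni3 from 2823 to 3712, Actn2 from 1515 to 2542 and Ryr2 from 1596 to 2267. Some libraries stood apart within their group. In a principal component analysis of log2 CPM, the other 11 libraries ran from -32.4 to 12.7 on the leading axis and control replicate 2 had a value of 84.4. This library also had the lowest TMM factor, 0.839, and the fewest genes with a count, 19876. Ang II replicate 3 had the highest summed levels of class II, recruited macrophage, cytokine and mitosis genes of the 3 Ang II libraries, and EHP-101 replicate 2 had the highest level of glucocorticoid-responsive genes of the EHP-101 libraries. Markers of the atrium also differed, with a summed level over 17 genes of 3580 to 5600 CPM with Ang II alone and 2147 to 2715 CPM with EHP-101. Counts without single libraries are given beside the list counts that they moved most.

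The quasi-likelihood test of edgeR, with p-values adjusted by Benjamini and Hochberg's method, called no gene at an adjusted p under 0.05, or 0% of those tested. At an unadjusted p under 0.05, 784 genes were lower with EHP-101, or 5.11% of those tested, and 324 were higher, or 2.11%. DESeq2 on the same counts called 60 genes, or 0.365% of the 16438 it adjusted, 51 of them lower (0.31%) and 9 higher (0.0548%). An edgeR fit restricted to these 2 groups called 3 genes of 14930, or 0.0201%: Per2 and Tef were higher and Vsig4 lower. The 1494 genes whose EHP-101 libraries all lay below all Ang II libraries were 9.74% of the genes tested, and the 1075 that lay above were 7.01%. Below, a member of a gene list is counted as lower or higher when its unadjusted edgeR p is under 0.05. Counts from the main fit of EHP-101 against Ang II are to be read against 5.11% and 2.11%. Other fits have their own totals. With one of the 6 libraries left out, 431 to 902 genes were lower and 159 to 465 higher. Both totals were smallest without Ang II replicate 3, with 15551 genes fitted. Library size alone gave 1550 lower and 90 higher, and a score of the atrial markers as a covariate gave 627 and 372. Gene positions are those of the annotation on GRCm38. The median log2 fold change over all tested genes was 0.00.

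**Figure D1:**
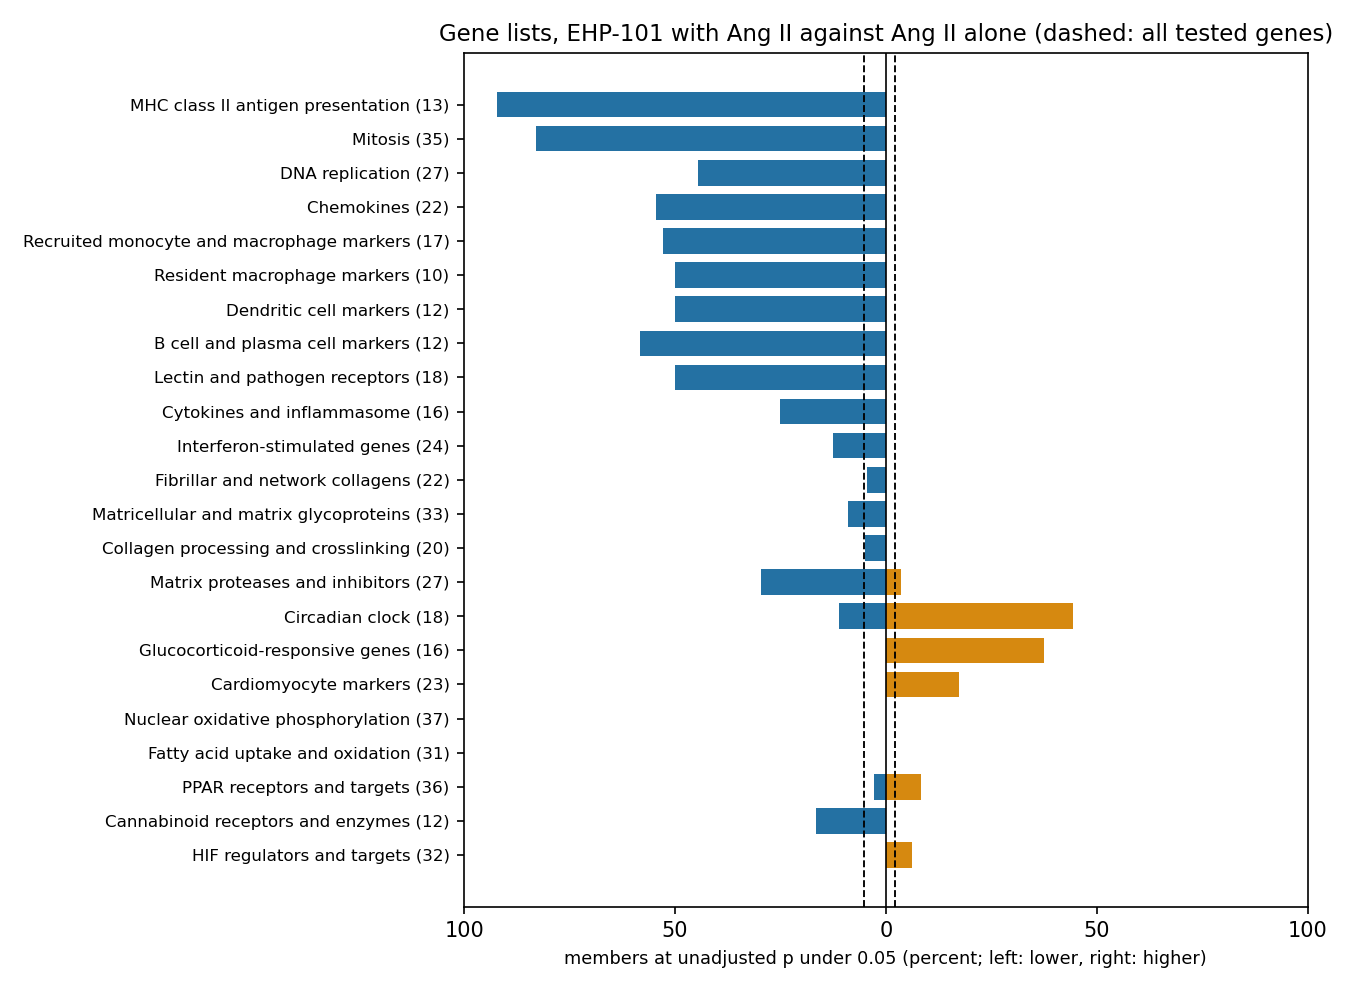
Share of the tested members of 23 gene lists (number tested in parentheses) that were lower (left) or higher (right) with EHP-101 at an unadjusted edgeR p under 0.05, in percent; dashed lines mark the shares over all 15336 tested genes, 5.11% lower and 2.11% higher. Class II, mitosis, chemokine and leukocyte lists extend far to the left, the clock and glucocorticoid lists to the right, and the collagen list lies near the dashed line.

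Genes for presenting antigen on MHC class II were lower with EHP-101. These proteins load peptides inside macrophages, dendritic cells and B cells and show them to helper T cells. Of 13 tested members, 12 were lower and 0 higher with EHP-101, all 13 fold changes were negative, and the median log2 fold change was -1.11. DESeq2 called 6 of the 13 as lower (background 0.31%): H2-Ab1, H2-Aa, H2-Eb1, Cd74, H2-DMa and H2-DMb1. In 11 of the 13 the groups did not overlap, beside the background of 9.74% for EHP-101 libraries below Ang II libraries.

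H2-Ab1, the beta chain of the I-A molecule (chr17:34257689-34269419, plus strand, GRCm38), measured 43.5, 42.4 and 65.0 CPM with Ang II alone and 22.8, 22.5 and 25.2 CPM with EHP-101. All EHP-101 values lay below all Ang II values, and the fold change was -1.10 ± 0.18 (log2, SE), with an unadjusted edgeR p of 3.98e-05, an adjusted edgeR p of 0.291 and an adjusted DESeq2 p of 0.000198. Its partner chain H2-Aa measured 66.1, 66.1 and 108 CPM against 37.2, 34.5 and 35.7 CPM. The beta chain of I-E, H2-Eb1, measured 48.6, 46.2 and 75.1 CPM against 25.6, 24.4 and 28.5 CPM. In each of these genes Ang II replicate 3 was the highest library, and the other Ang II libraries were still above every EHP-101 library. The promoters of H2-Aa and H2-Eb1 are shown because class II genes are classically read through a shared upstream module that includes a CCAAT box. The 150 bases before each gene start are given 5′ to 3′ on the gene's strand from RefSeq (GRCm38.p6), at chr17:34287824-34287973 for H2-Aa (minus strand) and chr17:34305717-34305866 for H2-Eb1 (plus strand), with CCAAT, or ATTGG where it lies on the other strand, in capitals.

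H2-Aa: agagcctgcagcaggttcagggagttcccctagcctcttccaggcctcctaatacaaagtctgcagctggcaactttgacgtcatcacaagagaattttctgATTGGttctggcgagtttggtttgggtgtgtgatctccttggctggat

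H2-Eb1: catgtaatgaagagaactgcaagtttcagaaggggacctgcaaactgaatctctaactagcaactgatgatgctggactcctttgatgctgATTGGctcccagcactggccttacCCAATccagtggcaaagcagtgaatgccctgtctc

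H2-Aa holds 1 match and H2-Eb1 holds 2 in these windows. In the longer RefSeq windows of 300 bases around the start, 8 of the 12 windows of the 10 matched class II list genes hold CCAAT on either strand, or 66.7%, against 37.4% of all 32851 promoter windows. The share was also high in other lists described below, with 80% for mitosis, 57.1% for DNA replication and 75% for the clock. CCAAT was therefore not particular to class II genes or to the lists that were lower. A match of letters is a description and shows no binding.

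The invariant chain Cd74, which escorts class II molecules to the loading compartment, measured 110, 113 and 163 CPM with Ang II alone and 62.3, 55.7 and 58.5 CPM with EHP-101. Its fold change was -1.13 ± 0.19 (log2, SE), although it shares exon bases with another annotated gene and the library kit keeps no strand. The peptide exchange factors were lower as well: H2-DMa had a mean of 5.81 ± 1.40 CPM (SD, n = 3) with Ang II alone and 2.61 ± 0.525 with EHP-101. H2-DMb1 ranged from 2.74 to 5.92 CPM with Ang II alone and from 1.40 to 1.88 CPM with EHP-101. Ciita, the transactivator that switches class II genes on, measured 3.80, 2.87 and 4.65 CPM against 2.20, 1.03 and 2.89 CPM, and here the groups overlapped narrowly.

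The class II difference was smaller but kept its direction without Ang II replicate 3, where 9 of the 13 members were lower with a median of -0.89. Saline hearts had 32.0 ± 6.37 CPM of H2-Ab1 (SD, n = 3), and losartan hearts 30.6 ± 1.26. The EHP-101 mean of H2-Ab1 was below both, and the fold change of EHP-101 against losartan was -0.38 with an unadjusted edgeR p of 0.0519. Over the class II list, 6 members were lower with EHP-101 than with losartan (background 2.97%), and Cd74 was among the lower ones at -0.51 with an unadjusted edgeR p of 0.0209. That count was 0 without EHP-101 replicate 2, 1 without losartan replicate 2 and 4 without any other single library of these groups. No gene passed the adjusted edgeR threshold between EHP-101 and losartan, 0% of those tested, while DESeq2 called 25 of 24224 (0.103%).

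**Figure D2:**
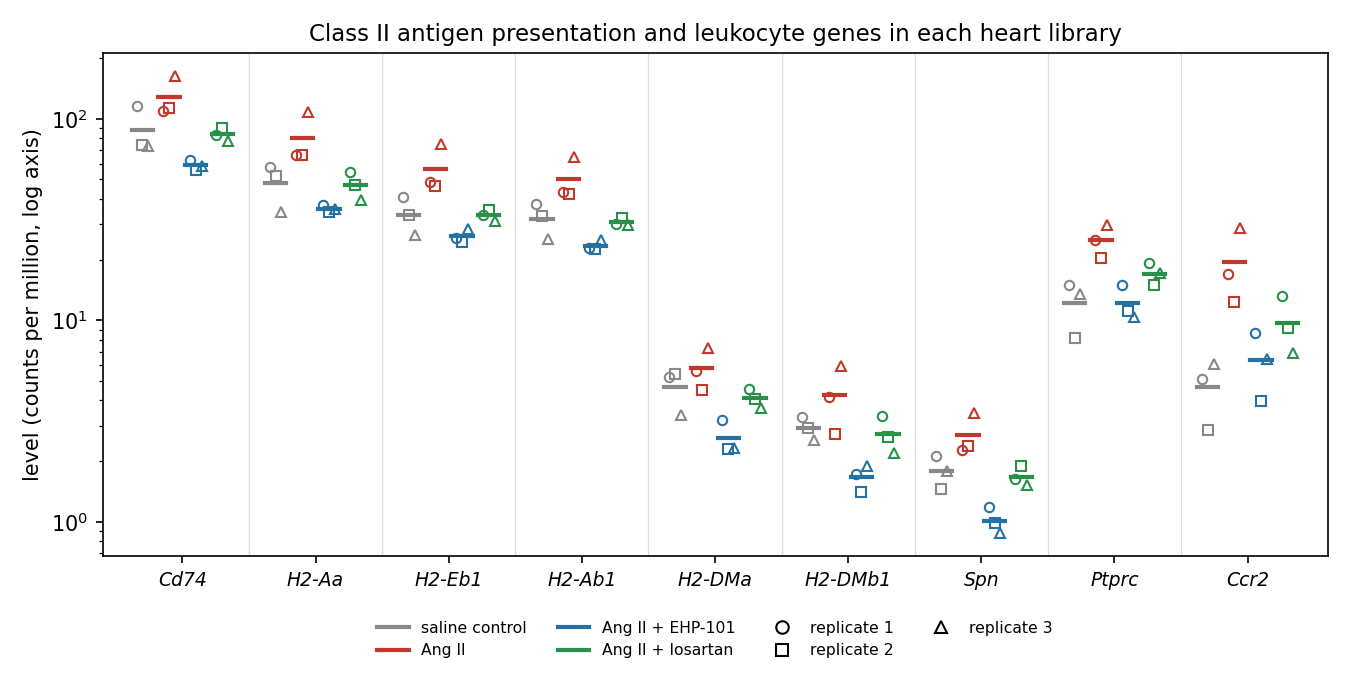
Level of class II genes and leukocyte genes in CPM (log axis) in each library of the 4 groups; symbols are the 3 replicates and horizontal lines are group means. For H2-Ab1 the EHP-101 libraries lie between 22.5 and 25.2 and the Ang II libraries between 42.4 and 65.0, and Ang II replicate 3 is the highest point of most genes shown.

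Some genes of leukocytes were lower too. Spn (CD43), a sialoglycoprotein of the leukocyte surface, measured 2.28, 2.37 and 3.45 CPM with Ang II alone and 1.18, 0.982 and 0.876 CPM with EHP-101. Ptprc (CD45), present on nearly all leukocytes, measured 25.0, 20.4 and 29.9 CPM against 14.9, 11.2 and 10.4 CPM. The groups separated for both genes, and the mean of Ptprc with EHP-101 (12.2 ± 2.39 CPM, SD, n = 3) stood beside 12.2 ± 3.62 in saline hearts. DESeq2 also called the myeloid transcription factor Spi1 (PU.1), at -0.89 ± 0.18 (log2, SE), and the leukocyte actin bundler Lcp1, at -0.90 ± 0.18. Spn was named for its small p, and Ptprc, Spi1 and Lcp1 were chosen after their values had been seen. They are examples and no test of leukocyte markers as a set.

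Of 17 tested markers of recruited monocytes and macrophages, 9 were lower, 0 were higher and the median log2 fold change was -0.70. Ccr2, the receptor that draws monocytes out of the marrow, measured 16.9, 12.3 and 28.9 CPM with Ang II alone and 8.67, 3.97 and 6.44 CPM with EHP-101. Ccr2 was one of the genes that Ang II itself raised, from 4.68 ± 1.66 CPM in saline hearts (SD, n = 3), with an adjusted edgeR p of 0.039, and it had no such call for EHP-101 against saline (0.548). With one library left out, the adjusted edgeR p of Ccr2 for Ang II against saline ranged from 0.0246 to 0.215, and it was 0.151 without control replicate 2. These comparisons share the Ang II or the EHP-101 libraries, so the values stand side by side only. The monocyte genes Plac8 and Ly6c2 had fold changes of -2.19 ± 0.54 and -2.41 ± 0.71 (log2, SE). Ly6c2 was scarce, with 111 reads over the 12 libraries, and DESeq2 did not call it. Ang II replicate 3 set much of the size for Plac8, with 5.96 CPM beside 2.01 and 1.74, and without it the fold change was -1.40. The pan-macrophage genes Adgre1 (F4/80), Lyz2 (lysozyme) and Cd68 had fold changes of -0.95, -0.77 and -0.63 in the same order. The summed level of the 17 genes was 540 to 958 CPM with Ang II alone, 446 to 489 CPM with EHP-101, 378 to 463 CPM with losartan and 413 to 434 CPM with saline.

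Of 10 tested markers of resident macrophages, 5 were lower and 0 higher, with a median of -0.54. Vsig4, a complement receptor of tissue macrophages, measured 7.67, 6.31 and 7.01 CPM against 2.45, 2.01 and 2.23 CPM. Its groups lay far apart, and its adjusted edgeR p in the fit of these 2 groups alone was 0.0217. Timd4 and Folr2, surface proteins of self-renewing macrophages, were lower at -0.98 and -0.82 (log2). Lyve1, which marks perivascular macrophages and lymphatic vessels, had a fold change of 0.06 ± 0.29 (log2, SE), and its groups overlapped. Without EHP-101 replicate 3, 3 of the 10 were lower with a median of -0.27.

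Other leukocyte lists had negative medians with fewer reads behind them. The summed levels of all but the B cell list overlapped between the groups. Dendritic cell markers summed to 57.1 to 72.9 CPM with Ang II alone and 54.1 to 59.0 CPM with EHP-101. For mast cell markers the sums were 31.5 to 37.5 and 25.6 to 33.0 CPM, and for neutrophil markers 15.3 to 31.5 and 10.7 to 30.3 CPM. T and NK cell markers had 6.06 to 9.86 and 3.51 to 6.22 CPM. Of 12 dendritic cell markers, 6 were lower, among them the integrin Itgax (CD11c) at -1.38 and the transcription factor Irf8 at -0.63. Fold changes were negative for 9 of the 12 and positive for 3, up to 0.49 (log2), and DESeq2 called 0 of them. Without Ang II replicate 3 the count of lower dendritic cell markers was 3. Of 12 B cell and plasma cell markers, 7 were lower, led by the B cell factor Pax5 at -1.36 ± 0.41 (log2, SE), with 1.48, 1.12 and 1.16 CPM against 0.423, 0.468 and 0.569 CPM. EHP-101 replicate 2 carried the lowest B cell sum, 9.87 CPM beside 20.2 and 21.4, and without it only 2 of the 12 were lower, while 4 were without Ang II replicate 1. Of 7 mast cell markers, 4 were lower, and the mast cell protease Cpa3 measured 2.20, 1.70 and 3.37 CPM against 0.888, 0.888 and 0.525 CPM. Of 9 T and NK cell markers 1 was lower, and of 9 neutrophil markers 2 were. With one of the 6 libraries left out, these counts ranged from 0 to 3 and from 1 to 2. The neutrophil median was -0.41, and it was -0.0065 without EHP-101 replicate 3 and -1.05 without EHP-101 replicate 2. Cd3e, Cd8b1 and Foxp3 had too few reads to be tested.

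Chemokines, the secreted proteins that guide leukocytes, had 12 of 22 tested members lower and 0 higher, with a median log2 fold change of -0.97. Their summed level, which rests mostly on the abundant members, overlapped between the groups. It was 408 to 497 CPM with Ang II alone and 388 to 416 CPM with EHP-101. Cxcl13, which attracts B cells, measured 3.11, 1.95 and 2.62 CPM with Ang II alone and 0.169, 0.468 and 0.219 CPM with EHP-101. This was the lowest fold change among the DESeq2 calls for named genes, -3.16 ± 0.77 (log2, SE). Losartan hearts had 0.299 ± 0.302 CPM (SD, n = 3) and saline hearts 0.324 ± 0.408, means that lie between the lowest and highest EHP-101 library. Cxcl1, a neutrophil attractant, measured 5.58, 3.24 and 5.81 CPM against 1.23, 0.514 and 2.45 CPM. Ccl2, the ligand of Ccr2, measured 4.33, 3.95 and 6.33 CPM against 1.82, 0.795 and 2.32 CPM. Saline hearts had 4.54 ± 2.41 CPM of Ccl2 (SD, n = 3), between the lowest and highest Ang II library. Ccl7 and Cxcl10 had fold changes of -1.67 and -1.71.

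The cytokine Il1b, released by activated macrophages, measured 4.75, 1.66 and 8.81 CPM with Ang II alone and 1.06, 0.701 and 0.744 CPM with EHP-101, a fold change of -2.60 ± 0.62 (log2, SE). The sensor Nlrp3, which assembles the complex that matures this cytokine, had 1.40, 1.16 and 1.84 CPM against 0.888, 0.421 and 0.700 CPM. Il6 measured 0.721, 0.665 and 5.28 CPM against 0.381, 0.187 and 0.744 CPM. A single library, Ang II replicate 3, was high for Il6, the groups overlapped, and without that library the fold change went from -2.33 to -0.65. Of 18 receptors for microbial patterns, 9 were lower, including Tlr2 at -0.76, Clec7a at -1.23 and Clec12a at -1.48. The median of these receptors was -0.65, and without Ang II replicate 3 it was -0.44 with 5 lower, and without EHP-101 replicate 3 it was -0.44 with 6 lower. Interferon-stimulated genes differed less: 3 of 24 were lower with a median of -0.28, and Mx1 measured 2.85, 2.91 and 3.04 CPM against 1.48, 1.36 and 1.36 CPM. The count of lower interferon-stimulated genes was 1 without Ang II replicate 3 and 8 without EHP-101 replicate 3.

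Genes of mitosis were lower as a group. Of 35 tested members 29 were lower with EHP-101 and 0 were higher, with a median log2 fold change of -1.31, and in 26 the groups did not overlap (background 9.74%). Top2a, which untangles DNA before chromosomes separate, measured 6.99, 7.14 and 13.8 CPM with Ang II alone and 1.02, 3.65 and 3.41 CPM with EHP-101. Its fold change was -1.80 ± 0.42 (log2, SE), with an adjusted DESeq2 p of 0.0139, and it shares exon bases with another gene. Mki67, the antigen by which dividing cells are stained, measured 9.42, 10.1 and 18.1 CPM against 1.14, 5.66 and 6.44 CPM. Cdk1, the kinase that starts mitosis, measured 2.35, 2.58 and 4.95 CPM against 0.296, 1.03 and 1.23 CPM. In all 3 genes Ang II replicate 3 was the highest and EHP-101 replicate 1 the lowest library, and the groups were still apart.

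Both of these libraries weighed on the count. Without Ang II replicate 3, 13 of the 35 members were lower with a median of -1.03, and without EHP-101 replicate 1, 17 were lower with a median of -1.04. Iqgap3, a scaffold protein of dividing cells outside the list, measured 3.08, 3.41 and 5.58 CPM against 0.465, 1.22 and 1.31 CPM, and its fold change was -2.01 ± 0.37 (log2, SE). Foxm1, the transcription factor that drives late cell cycle genes, had 2.51, 2.82 and 3.34 CPM against 0.761, 1.64 and 1.09 CPM. DNA replication genes differed less, with 12 of 27 lower and a median of -0.40, among them the helicase subunits Mcm2 (-0.75) and Mcm5 (-0.81) and the ribonucleotide reductase subunit Rrm2 (-1.14). Without Ang II replicate 3, 5 of the 27 were lower with a median of -0.33.

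Late cell cycle promoters are known for CCAAT boxes and for the cell cycle homology element, whose core reads TTTGAA. The 150 bases before the starts of Top2a (chr11:99024190-99024339, minus strand) and Cdk1 (chr10:69352913-69353062, minus strand) show both, in capitals on either strand, with TTCAAA as the reverse of TTTGAA.

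Top2a: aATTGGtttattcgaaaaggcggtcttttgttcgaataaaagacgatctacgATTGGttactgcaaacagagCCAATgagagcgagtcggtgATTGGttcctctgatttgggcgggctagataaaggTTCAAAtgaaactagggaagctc

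Cdk1: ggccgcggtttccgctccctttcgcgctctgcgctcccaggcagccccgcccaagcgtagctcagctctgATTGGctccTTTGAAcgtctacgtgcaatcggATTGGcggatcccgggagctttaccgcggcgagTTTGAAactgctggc

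Top2a holds 5 matches and Cdk1 holds 4. Over the 30 RefSeq windows of 300 bases that matched 29 of the mitosis genes, 24 hold TTTGAA, or 80%, against 17.9% of all windows, and 24 hold CCAAT. In the 28 windows of 23 DNA replication genes, 3 hold TTTGAA, or 10.7%, and 16 hold CCAAT, or 57.1%.

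Across the 4 groups, Mki67 had 9.30 ± 2.35 CPM in saline hearts (SD, n = 3), 12.6 ± 4.84 with Ang II, 4.41 ± 2.86 with EHP-101 and 10.5 ± 3.37 with losartan. The median log2 fold change of the mitosis list was -1.14 for EHP-101 against saline and -0.02 for Ang II against saline. Control replicate 2 weighed on both values: its summed level of the list was 189 CPM beside 121 and 129 CPM in the other saline libraries and 124, 134 and 180 CPM with Ang II alone. Without it the medians were -0.68 for EHP-101 against saline and 0.65 for Ang II against saline. Against losartan, 10 of the 35 members were lower with EHP-101 and 0 higher, with a median of -0.91, and the fold change of Top2a was -1.40 with an unadjusted edgeR p of 0.00596. The count of 10 was 2 without losartan replicate 3, 4 without EHP-101 replicate 1, 6 without EHP-101 replicate 2 and 17 without EHP-101 replicate 3.

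**Figure D3:**
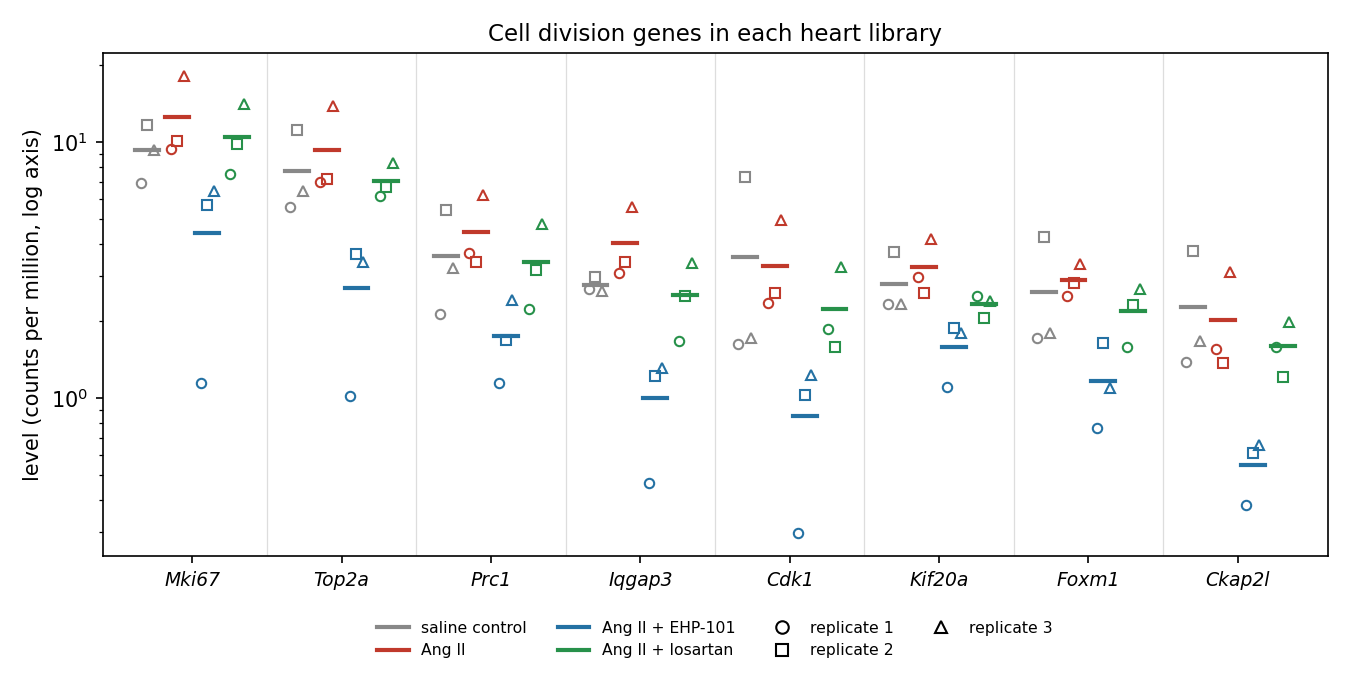
Level of cell division genes in CPM (log axis) in each library of the 4 groups; symbols are replicates and horizontal lines group means. For Top2a the EHP-101 libraries lie at 1.02 to 3.65 and the Ang II libraries at 6.99 to 13.8, with Ang II replicate 3 highest and EHP-101 replicate 1 lowest.

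The circadian clock is a feedback loop in which the activators Arntl (BMAL1), Clock and Npas2 switch on the repressors of the Per and Cry families and output factors such as Dbp and Tef. Of 18 tested clock genes, 8 were higher and 2 lower with EHP-101. Without Ang II replicate 1, Ang II replicate 3 or EHP-101 replicate 1, 4 were higher and 2 lower. Per2 (chr1:91415982-91459324, minus strand, GRCm38), a repressor of the loop, measured 6.95, 6.40 and 6.22 CPM with Ang II alone and 30.2, 27.6 and 20.6 CPM with EHP-101. The means were 6.52 ± 0.38 and 26.1 ± 4.96 CPM (SD, n = 3), and the groups did not overlap. The SE of the log2 fold change of Per2 was 0.45. Its adjusted p was 0.312 in edgeR over all groups, 0.00707 in DESeq2 and 0.00396 in edgeR over these 2 groups alone. Ciart, a repressor of the activator pair, measured 1.52, 2.08 and 2.29 CPM against 4.57, 8.74 and 6.48 CPM. Tef, an output factor, measured 81.2, 94.6 and 78.7 CPM against 180, 165 and 161 CPM, and shares exon bases with another gene. For each of these 3 genes every EHP-101 library exceeded every Ang II library.

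Per1, Per3, Dbp, Nr1d2 and Cry2 were the other members counted as higher, at 1.58, 1.22, 1.19, 0.56 and 0.55 (log2). Per1 depended on EHP-101 replicate 2, which had 97.2 CPM beside 29.7 and 46.5, and its fold change without that library was 0.98. The 2 lower members were activators: Arntl measured 40.0, 34.0 and 36.2 CPM against 18.5, 23.9 and 15.2 CPM, and Npas2 measured 12.9, 9.84 and 13.2 CPM against 6.17, 9.17 and 5.60 CPM. Nr1d1, a repressor of Arntl, had 80.4, 107 and 83.6 CPM against 81.3, 72.2 and 125 CPM and did not separate the groups. Saline hearts spread widely in these genes, with 8.54 ± 6.04 CPM for Per2 (SD, n = 3), and losartan hearts had 10.3 ± 5.03. The fold change of Per2 in EHP-101 against losartan was 1.34, with an unadjusted edgeR p of 0.009. The labels used here give no hour of collection.

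The 150 bases before the start of Ciart (chr3:95882229-95882378, minus strand) are shown because clock activators are known to bind E-boxes. The motif ACGTG and its reverse CACGT overlap in the palindrome CACGTG, in capitals.

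Ciart: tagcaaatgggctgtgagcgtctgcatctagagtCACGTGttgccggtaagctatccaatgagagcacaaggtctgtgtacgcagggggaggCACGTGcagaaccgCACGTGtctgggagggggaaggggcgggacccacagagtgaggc

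Counting both strands, this stretch holds 6 matches of ACGTG. Among the 20 RefSeq windows of 15 clock genes, 10 hold it, or 50%, against 19.6% of all windows. CCAAT is held by 15 of these 20 windows, or 75%.

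**Figure D4:**
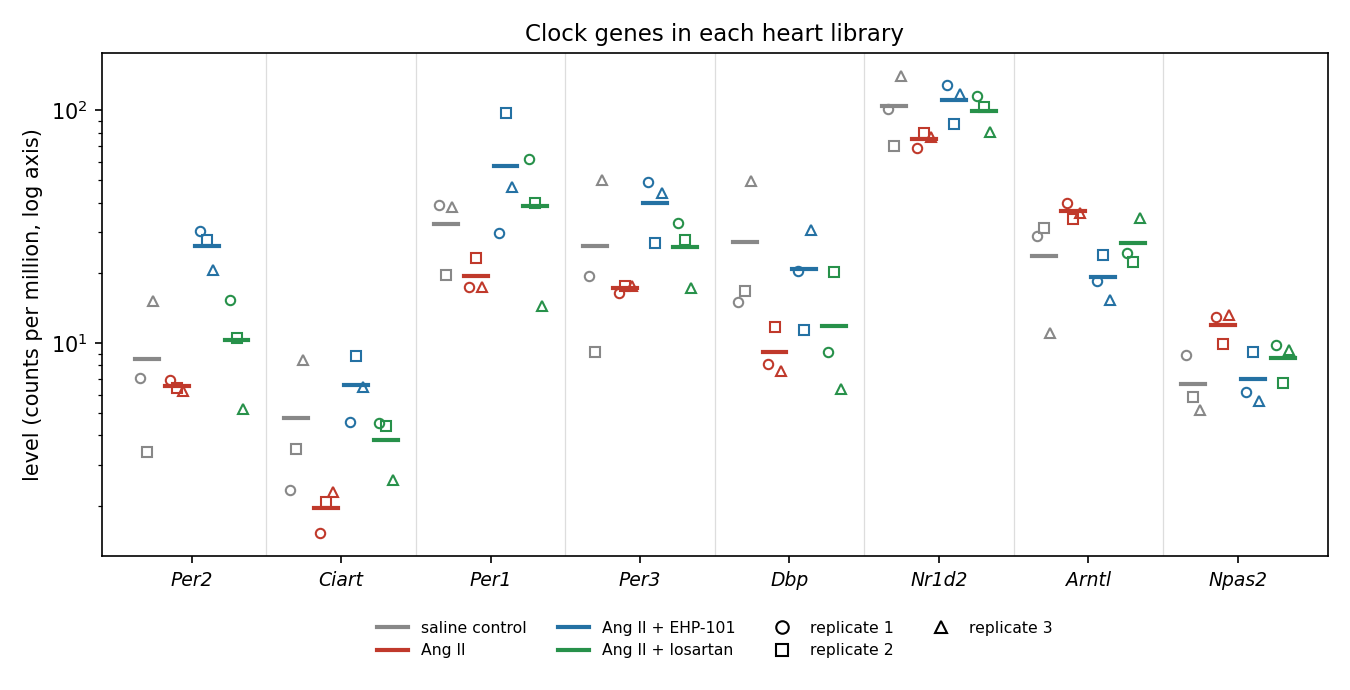
Level of clock genes in CPM (log axis) in each library of the 4 groups; symbols are replicates and horizontal lines group means. The EHP-101 libraries lie at 20.6 to 30.2 for Per2 and the Ang II libraries at 6.22 to 6.95, while Arntl and Npas2 are lower with EHP-101 and the saline libraries are spread.

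Glucocorticoid-responsive genes had 6 of 16 members higher and a median of 0.92, and a single library carried most of this. Fkbp5, a chaperone of the steroid receptor and a classical target, measured 19.1, 19.6 and 19.9 CPM with Ang II alone and 36.0, 239 and 27.2 CPM with EHP-101. Zbtb16 measured 18.5, 19.0 and 31.7 CPM against 75.5, 192 and 35.3 CPM. Without EHP-101 replicate 2 the list median was 0.22 and 1 member was higher, and without Ang II replicate 2 the count was 3. The summed level of the 16 genes was 2790 CPM in that library, 1339 and 1342 CPM in the other EHP-101 libraries, 881 to 1157 CPM with Ang II alone, and 4116 CPM in losartan replicate 1.

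Ang II raised 8 of the 22 collagens tested and 11 of the 33 matricellular and matrix glycoprotein genes over saline at an adjusted edgeR p under 0.05 (background 0.541%, both directions together). With one library left out these counts ranged from 1 to 9 and from 2 to 16, and both were 2 without control replicate 2. With EHP-101 against Ang II, 1 collagen was lower of the 22 and 3 of the 33 glycoproteins, beside the background of 5.11%. Their median log2 fold changes were -0.38 and -0.30. The counts of lower members were 0 and 0 without Ang II replicate 3, 4 and 7 without Ang II replicate 2, and 2 and 7 without EHP-101 replicate 3.

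Postn (periostin), secreted by activated fibroblasts, measured 790, 560 and 847 CPM with Ang II alone, 561, 647 and 741 CPM with EHP-101, and 123 ± 4.57 CPM in saline hearts (SD, n = 3). The Ang II and EHP-101 libraries overlapped, with a fold change of -0.17 ± 0.37 (log2, SE), and EHP-101 hearts remained above saline at 2.40 with an adjusted edgeR p of 0.0269 (background 0.398%). The adjusted edgeR p of Postn was 0.113 without control replicate 2 and above 0.05 without any other single control or EHP-101 library as well. Cilp, a matrix protein of stressed fibroblasts, measured 404, 303 and 385 CPM against 272, 207 and 351 CPM, with 47.7 ± 10.3 CPM in saline hearts (SD, n = 3). Its value for EHP-101 against saline was 2.54 with an adjusted edgeR p of 0.00503, and at most 0.038 with any library left out. The collagen I chains Col1a1 and Col1a2 had fold changes of -0.55 ± 0.37 and -0.56 ± 0.34 against Ang II alone, and their groups overlapped.

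Col3a1, the chain of collagen III (chr1:45311538-45349706, plus strand, GRCm38), was the collagen counted as lower. It measured 1508, 966 and 1884 CPM with Ang II alone and 538, 796 and 934 CPM with EHP-101, a fold change of -0.94 ± 0.31 (log2, SE), with an unadjusted edgeR p of 0.00971 and an adjusted edgeR p of 0.473. The 3 glycoproteins were Tnc (tenascin C, an adhesion modulator of wounds) at -0.88, Eln (elastin) at -0.85 and Lum (lumican, which spaces collagen fibrils) at -0.66. Tnc measured 28.6, 15.3 and 31.6 CPM against 14.7, 12.4 and 14.1 CPM, separated by the narrow margin of Ang II replicate 2, and saline hearts had 3.10 ± 1.07 CPM (SD, n = 3). The atrial markers differed between the same libraries, and in a fit with the atrial marker score as a covariate the collagen median was -0.06 and the glycoprotein median 0.03, with 0 members lower in either list. The score itself separated the groups, at 0.65 to 1.33 with Ang II alone and -0.97 to 0.40 with EHP-101. Atrial content and treatment therefore cannot be told apart in this fit.

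Losartan hearts had lower matrix levels than EHP-101 hearts for many of these genes. Of the 33 glycoprotein genes 17 were higher with EHP-101 than with losartan at an unadjusted edgeR p under 0.05 (background 3.07%), with a median difference of 0.62, and of the 22 collagens 6 were. Of the crosslinking and processing genes 9 of 20 were. The glycoprotein count was 5 without losartan replicate 3 and 6 without EHP-101 replicate 3. The crosslinking count was 4 without EHP-101 replicate 3 or losartan replicate 1 and 5 without EHP-101 replicate 2. Losartan replicate 3 also had the lowest summed atrial markers of the losartan libraries, 1174 CPM beside 1653 and 4547 CPM. Whether atrial content bears on these counts was not tested. Loxl3, which crosslinks collagen, measured 36.7, 24.3 and 39.9 CPM with Ang II alone, 29.0, 30.8 and 41.6 CPM with EHP-101, and 17.7, 16.0 and 11.3 CPM with losartan. The difference of EHP-101 from losartan was 1.17 ± 0.23 (log2, SE) with an unadjusted edgeR p of 0.0002 and an adjusted edgeR p of 0.384. Thbs4 (thrombospondin 4) differed by 1.60 ± 0.35, Cilp by 1.20 ± 0.28 and Col8a1, a short-chain collagen, by 0.85 ± 0.20. Loxl3, Thbs4 and Col8a1 were singled out after their values had been seen.

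**Figure D5:**
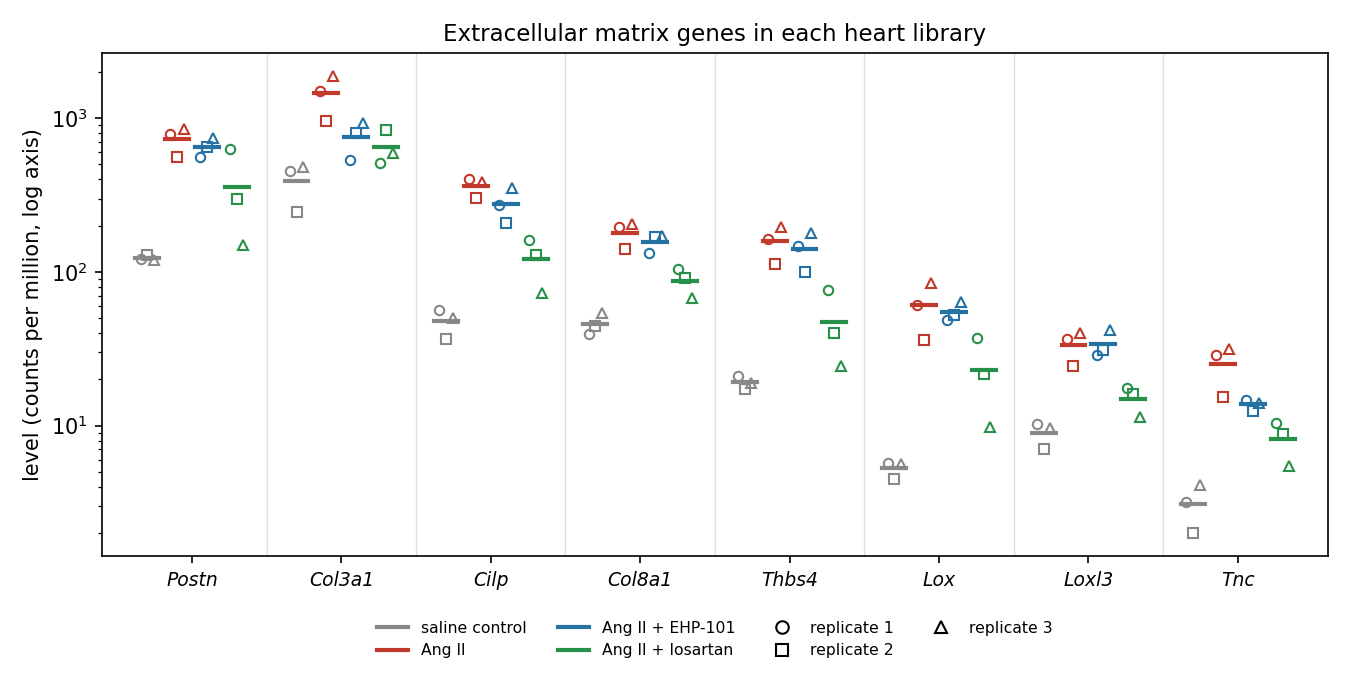
Level of matrix genes in CPM (log axis) in each library of the 4 groups; symbols are replicates and horizontal lines group means. For Loxl3 the EHP-101 libraries (29.0 to 41.6) overlap the Ang II libraries (24.3 to 39.9) and lie above the losartan libraries (11.3 to 17.7).

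Proteases that cut matrix, listed together with their inhibitors, had 8 of 27 members lower and 1 higher, and 5 lower and 0 higher without Ang II replicate 3. Adamts4, an aggrecan-cutting protease, measured 6.68, 5.19 and 8.81 CPM with Ang II alone and at most 4.44 CPM with EHP-101. Mmp9 and Mmp12, metalloproteases of neutrophils and macrophages, had fold changes of -1.35 and -1.45, and the urokinase Plau had -0.66. Timp1, an inhibitor of these enzymes and a marker of fibrotic hearts, measured 22.6, 18.1 and 56.4 CPM against 16.4, 14.7 and 22.1 CPM. Ang II replicate 3 was far above the rest, and without it the fold change of Timp1 went from -0.87 to -0.20.

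Among myofibroblast and smooth muscle genes 2 of 19 were lower, or 0 to 4 with one of the 6 libraries left out, and Acta2 (smooth muscle actin) measured 256, 233 and 382 CPM against 219, 155 and 170 CPM, a fold change of -0.68 ± 0.29 (log2, SE). In the TGFβ list 2 of 26 were lower, or 1 without Ang II replicate 3, and the ligand Tgfb1 had a fold change of -0.26 ± 0.17. Ccn2 (connective tissue growth factor), a TGFβ target, measured 224, 191 and 245 CPM with Ang II alone and 276, 323 and 296 CPM with EHP-101. These libraries separated upward, but the fold change of 0.44 ± 0.35 had an unadjusted edgeR p of 0.226.

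Of 23 cardiomyocyte markers 4 were higher and 0 lower, with a median of 0.22. The count was 1 without Ang II replicate 1, Ang II replicate 3 or EHP-101 replicate 1, 2 without EHP-101 replicate 2, and 1 with the atrial score as a covariate. Tnnt2 (cardiac troponin T) measured 6237, 6753 and 5729 CPM with Ang II alone and 9111, 8807 and 8361 CPM with EHP-101, a fold change of 0.49 ± 0.15 (log2, SE) with an adjusted DESeq2 p of 0.0316. Of 24 cardiac stress and fetal genes 3 were higher and 0 lower, or 1 to 4 higher with one of the 6 libraries left out. Their fold changes were mixed, with 16 positive and 8 negative, from -1.98 to 1.01 (log2). In this list Myh7, the fetal myosin that returns in stressed ventricles, measured 838, 499 and 601 CPM against 1721, 1128 and 1050 CPM. All EHP-101 libraries were above all Ang II libraries, with an unadjusted edgeR p of 0.0325 and a fold change of 1.01 ± 0.42. Against saline hearts (197 ± 97.5 CPM, SD, n = 3) Myh7 passed in EHP-101 hearts at 2.72, with an adjusted edgeR p of 0.0269, but not without any single control or EHP-101 library, where that p ranged from 0.0626 to 0.0966. Part of its sequence is nearly identical to the neighbouring Myh6, which had a fold change of 0.14 ± 0.30. The natriuretic peptide Nppb had 0.27 ± 0.69.

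Scaling mattered for this group. Without TMM factors, with library size alone, the median of all genes moved to -0.15, the cardiomyocyte median was 0.08 and 1 member was higher. Genes of oxidative phosphorylation (37 tested), fatty acid oxidation (31) and glycolysis (22) had medians of 0.18, 0.24 and 0.16 and 0 members past an unadjusted p of 0.05 in either direction. For fatty acid oxidation, 10 members were higher with a median of 0.37 without Ang II replicate 2, and 4 were higher with a median of 0.33 without EHP-101 replicate 3.

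The lists near the known targets of EHP-101 had 3 or fewer members counted in either direction, and these counts moved with single libraries. Pparg had its lowest Ang II library at 9.78 CPM and measured 10.7, 16.9 and 9.98 CPM with EHP-101, where replicate 2 was the highest. Its fold change was 0.34 ± 0.21 (log2, SE), with an unadjusted edgeR p above 0.05. Of 36 PPAR receptors and targets 3 were higher, beside the background of 2.11%, and 1 was lower, with a median of 0.15. The count of higher members ranged from 1 to 6 with one of the 6 libraries left out. Among them were the lipid droplet coat Plin4 (159, 182 and 161 CPM against 250, 405 and 218 CPM) and the lipase Lpl at 0.44. Abcg1, a cholesterol exporter, was the lower one at -0.57. The fatty acid carrier Fabp4 had a fold change of 0.17 ± 0.24.

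Cnr2, which encodes CB2, was scarce, with 1.25, 0.872 and 1.31 CPM against 0.719, 1.17 and 0.569 CPM. The groups overlapped, with a fold change of -0.49 ± 0.32 (log2, SE). Cnr1, the gene of the other cannabinoid receptor, had 47 reads over the 12 libraries and was not tested. Among 12 cannabinoid receptors and enzymes 2 were lower, beside the background of 5.11%. They were the cation channel Trpv2 (6.38, 5.48 and 7.12 CPM against 4.10, 4.30 and 4.73 CPM) and the prostaglandin synthase Ptgs2, whose groups overlapped. The count was 1 without Ang II replicate 1, Ang II replicate 3 or EHP-101 replicate 3. It was 3 without Ang II replicate 2 or EHP-101 replicate 1.

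The HIF list had 2 of 32 members higher, beside the background of 2.11%, 0 lower and a median of 0.07. With one of the 6 libraries left out, 0 to 5 were higher. Hif3a, a member of the HIF family, had 1.40, 1.12 and 1.31 CPM against 1.99, 13.3 and 1.88 CPM, so that EHP-101 replicate 2 made most of the difference and the fold change without it was 0.60. Flt1, a receptor of vascular growth factor, measured 173, 150 and 157 CPM against 217, 313 and 197 CPM. Vegfa itself measured 326, 366 and 402 CPM against 356, 341 and 407 CPM. Egln1, the oxygen sensor that marks HIF for destruction, had a fold change of 0.14 ± 0.16, and the phosphatase subunit Ppp2r2a had -0.00 ± 0.09.

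In the renin-angiotensin system 2 of 13 members were lower and 1 higher, or 0 to 3 lower and 0 to 2 higher with one of the 6 libraries left out. The receptor gene Agtr1a ranged from 22.6 to 31.9 CPM with Ang II alone and measured 34.5, 30.3 and 28.5 CPM with EHP-101, and Ace had a fold change of 0.16 ± 0.21 (log2, SE). Agt, the precursor of Ang II, was counted as higher through EHP-101 replicate 2, with 18.1 CPM beside 4.19 and 5.38. Among immediate early genes 3 of 22 were lower and 1 higher: Junb measured 43.2, 28.9 and 32.6 CPM against 16.1, 9.91 and 23.8 CPM, while Fos rested on Ang II replicate 1, with 73.7 CPM beside 15.4 and 25.5. Without Ang II replicate 2, 6 were lower, and without EHP-101 replicate 3, 7 were.

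Atrial genes differed between the groups, and how much atrium each library held was not measured. Bmp10, a ligand made by atrial muscle, measured 507, 340 and 223 CPM with Ang II alone and 1.65, 0.140 and 135 CPM with EHP-101. Myl7, the atrial myosin light chain, measured 539, 362 and 312 CPM against 77.8, 24.7 and 204 CPM. Of 17 atrial markers 1 was lower and 10 did not overlap between the groups (background 9.74%). The atrial score separated the groups, so a fit with it as a covariate cannot tell atrial content from treatment. With the atrial score as a covariate, 11 class II, 32 mitosis and 12 chemokine genes were lower, and 10 clock genes were higher. In the same fit the lower counts went from 7 to 4 for B cell markers and from 6 to 4 for dendritic cell markers. They went from 12 to 10 for DNA replication and from 8 to 6 for matrix proteases and inhibitors. The higher counts went from 4 to 1 for cardiomyocyte markers and from 6 to 2 for glucocorticoid-responsive genes. The epicardial list had 1 of 18 lower with a median of -0.72, or 5 lower without EHP-101 replicate 3, and the adipocyte list 1 of 19 lower and 1 higher.

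Several genes outside the lists completed those with the smallest p. Gatm, which makes the precursor of creatine, measured 5.32, 5.48 and 6.18 CPM with Ang II alone and 2.83, 2.81 and 3.63 CPM with EHP-101. Chp2, a calcineurin-like calcium sensor, measured 4.10, 3.36 and 3.37 CPM against 2.11, 1.73 and 1.93 CPM, and stood lower than with losartan as well, by 0.86 on the log2 scale with an unadjusted edgeR p of 0.000375. Pla2g2d, a secreted phospholipase of lymphoid dendritic cells singled out after its values were seen, measured 1.40, 1.29 and 1.84 CPM against 0.381, 0.374 and 0.350 CPM, and its difference from losartan was -2.42 with an unadjusted edgeR p of 2.13e-05. Upward, the long noncoding RNA Hand2os1, a neighbour of the heart factor Hand2, measured 43.1, 42.7 and 45.4 CPM against 71.1, 68.6 and 58.4 CPM. The kinase Sik3, at 66.9, 80.5 and 71.2 CPM against 103, 118 and 88.0 CPM, and the mitochondrial enzyme Ogdhl, at 94.4, 141 and 98.1 CPM against 224, 214 and 142 CPM, also separated the groups. Mthfd1l, of mitochondrial folate metabolism, measured 1.29, 1.45 and 1.24 CPM against 2.07, 2.48 and 2.23 CPM. It had the smallest p of the named genes for EHP-101 against losartan (0.724 ± 0.0174 CPM, SD, n = 3), with a difference of 1.64 and an adjusted edgeR p of 0.0748.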

How the data were processed

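RNA of mouse hearts was sequenced with a kit that keeps no strand, in 3 libraries for each of 4 groups. The deposited values are raw read counts per Ensembl gene, made by the authors with fastp 0.20.0, HISAT2 2.1.0 and featureCounts 2.0.0 on GRCm38, per the submitters' processing notes; the annotation release is not given in the sources used here. Of 47729 genes, 15336 passed edgeR's low-count filter over all libraries. Here they were scaled by TMM and tested with edgeR 4.0.16 (robust quasi-likelihood, all 4 groups in one fit, Benjamini-Hochberg adjustment, R 4.3.3), after a check on simulated counts. Alternatives used DESeq2 1.42.0, limma 3.58.1, other scalings, filters and sample sets. CPM used TMM library sizes, and errors are SD over 3 libraries or the SE of a fitted log2 fold change.

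The comparison and the gene lists were chosen with earlier results of these data known. Named genes are those with the smallest p among separated genes, the largest changes among DESeq2 calls, up to 6 per list, and a set of pathway genes. Ptprc, Spi1, Lcp1, Per3, Dbp, Nr1d1, Nr1d2, Cry2, Loxl3, Thbs4, Col8a1, Lox and Pla2g2d fall outside this rule and were chosen after their values were seen. Of the 113 named genes, 30 share exon bases with another gene, and their reads cannot be assigned with certainty. Replicate numbers did not pair the libraries: the deviations of same-numbered libraries correlated at 0.05, 0.07 and 0.01. Promoters are RefSeq windows of GRCm38.p6, searched on both strands. Results for some genes are not reported here.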

Additional observations from a re-analysis of the deposited data

How the results depend on the processing

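With 3 libraries a group, the count of genes past the adjusted threshold for EHP-101 against Ang II depended on the tool and the genes tested: it was 60 with DESeq2, 10 with no filter on low counts, 3 with only the 2 groups in the fit, and 0 under the other alternatives run, including every left-out library. Of the 113 named genes, DESeq2 called 32. At an unadjusted p under 0.05, the 784 lower genes became 1550 with library size alone, 1503 with quality weights and 386 at a mean of at least 5 CPM, and ranged from 431 (without Ang II replicate 3) to 1119 (without control replicate 2) with one library left out. The 324 higher genes became 90, 896 and 196 under the same 3 settings, 491 with no filter, 662 with only the 2 groups and 567 without the control group, and ranged from 159 to 659 over the left-out libraries. Library size alone moved the median of all genes by -0.15 and the lower share of these calls from 70.8% to 94.5%. With the replicate number as a block, 783 genes were lower and 286 higher. Against losartan, DESeq2 called 25 genes, quality weights 1, no filter 3, and the left-out libraries 0 to 2.

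List medians moved in some settings. The chemokine median was -0.41 at a mean of at least 5 CPM. The clock median was 0.32 with library size alone, 0.36 at a mean of at least 5 CPM and 0.66 with the atrial covariate, and 0.41 to 0.52 over left-out libraries. The glucocorticoid median ranged from 0.22 to 1.21 over left-out libraries. With the atrial covariate the collagen median was -0.063, the glycoprotein median 0.029 and the HIF median -0.0015, which was -0.076 with library size alone. In values added after seeing the data, the mitosis median with one library left out ranged from -0.23 to 0.65 for Ang II against saline and from -1.51 to -0.68 for EHP-101 against saline. The cause of these shifts was not tested.

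Signs changed for named genes, most of them near 0, in 45 of 2560 values. With library size alone, the log2 fold change was -0.0093 for Ace, -0.0056 for Egln1, -0.15 for Loxl3, -0.11 for Lyve1, -0.0090 for Myh6, -0.094 for Nr1d1, -0.00042 for Ryr2 and -0.13 for Vegfa. With quality weights, the log2 fold change was -0.0054 for Ace, -0.11 for Loxl3, -0.026 for Lyve1, 0.0033 for Ppp2r2a and -0.013 for Vegfa. With the atrial covariate, the log2 fold change was -0.0075 for Egln1, 0.14 for Lox, 0.33 for Myl7, -0.56 for Nppb, 0.091 for Thbs4, -0.024 for Tnni3 and -0.052 for Vegfa. At a mean of at least 5 CPM, the log2 fold change was -0.020 for Loxl3 and -0.010 for Vegfa. With limma-voom, the log2 fold change was -0.014 for Lyve1. With RLE factors, the log2 fold change was 0.00053 for Ppp2r2a. With DESeq2, the log2 fold change was 0.00082 for Ppp2r2a. Without a filter, the log2 fold change was 0.0019 for Ppp2r2a. In the fit of these 2 groups, the log2 fold change was 0.00015 for Ppp2r2a. With one library left out, the value ranged from -0.099 to 0.34 for Ace, -0.41 to 0.17 for Lox, -0.18 to 0.15 for Loxl3, -0.18 to 0.33 for Lyve1, -0.23 to 0.19 for Nr1d1, -0.038 to 0.027 for Ppp2r2a, -0.36 to 0.045 for Thbs4 and -0.066 to 0.090 for Vegfa.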
